A study of Mus musculus with 33 samples.

Results

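RNA-seq counts from 11 mouse mammary tumours treated with RP-6306, whose sample titles begin with MYT, were compared with those from 5 untreated tumours whose titles begin with SPON. These 16 tumours are all that carry either title among the 33 samples of the study. The study's design text names tumours of cyclin E transgenic mice given a PKMYT inhibitor for different periods, and PyMT tumours. For every sample the labels give mammary tumour as the tissue and FVB, an inbred strain, as the genotype. The treatment was RP-6306 at 20 mg/kg for MYT and none for SPON. The treatment field adds a twice-daily abbreviation, whereas the treatment protocol gives the dose per day. A growth protocol shared by all samples says that tumours were transplanted into mice. Which tumour line, transgene or treatment period belongs to which title, and what SPON stands for, are not given in the sources used here. Treatment, source tumour and transplantation therefore cannot be told apart in this contrast. Nothing in the labels says whether tumours of 1 title came from 1 source, and the p-values then speak only of the spread among these libraries.

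PKMYT1, the kinase that RP-6306 inhibits, and WEE1 hold CDK1 bound to cyclin B inactive by phosphorylation, and CDC25 phosphatases remove these phosphates at the entry into mitosis. Cyclin E with CDK2 drives the entry into S phase, and cells with excess cyclin E are known for their reliance on PKMYT1. Tumour tissue also holds immune and stromal cells, and in such libraries fewer cells of a type and less RNA per cell cannot be told apart.

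The 16 libraries held 13701115 to 20105407 counts. The 11 MYT libraries lay close together, with a median pairwise distance of 0.58 (root mean square difference of log2 CPM over tested genes, CPM being counts scaled to a common library size). The 5 SPON libraries were 1.24 apart, against 1.22 between MYT and SPON. SPON replicate 4 was the nearest to MYT, at a median distance of 0.86, and SPON replicate 5 the farthest, at 1.39. Mitochondrially encoded genes took 19.3% and 23.4% of the counts in SPON replicates 1 and 5. Their share was 2.82 to 4.96% in the other SPON libraries and 2.14 to 4.39% in MYT (two-sided exact permutation test over samples, p = 0.00824, adjusted over 5 library measures 0.0198). Without SPON replicate 1 that adjusted p was 0.0659. Total counts did not pass the same test (adjusted p = 0.766).

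**Figure D1:**
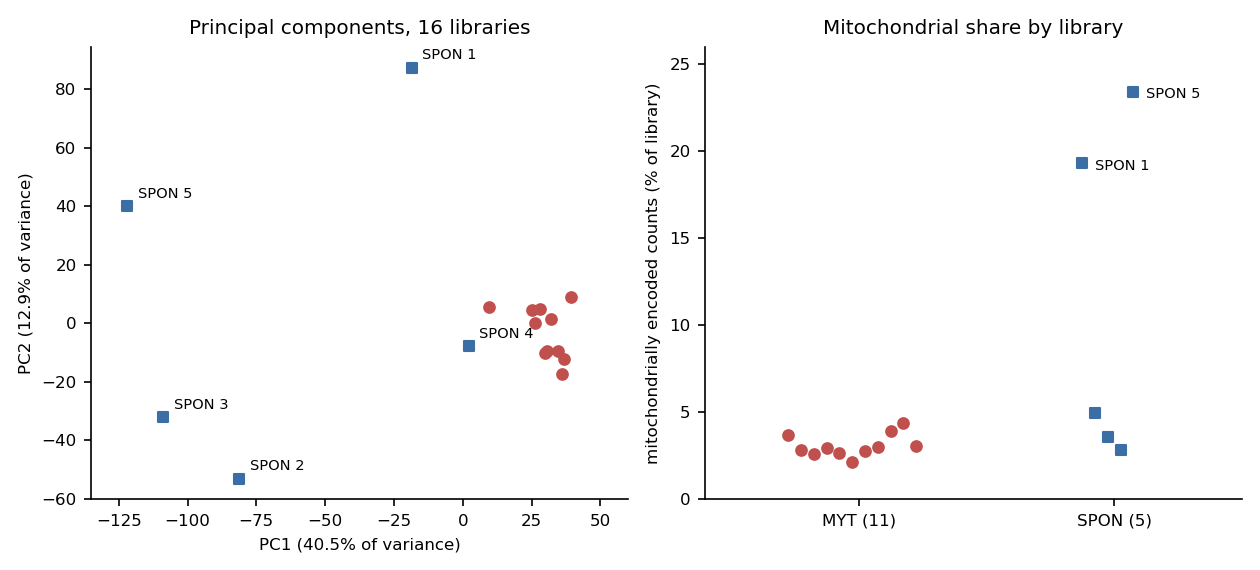
Left: principal components of log2(CPM + 0.5) for 11 MYT libraries (circles) and 5 SPON libraries (squares, with replicate number), PC1 holding 40.5% and PC2 12.9% of the variance. Right: percent of each library's counts in mitochondrially encoded genes; the MYT libraries lie together on PC1 between 9.66 and 39.23, the SPON libraries spread from -121.81 to 2.1, and SPON replicates 1 and 5 stand at 19.3% and 23.4% on the right.

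Of 15695 genes tested, 4480 (28.5%) passed an adjusted p of 0.05 in edgeR's quasi-likelihood test, 1484 (9.46%) of them higher and 2996 (19.1%) lower in MYT. Among them 718 were higher and 1581 lower by a fold of at least 2. Every MYT library lay above every SPON library in 381 genes (2.43%) and below in 318 (2.03%). The median log2 fold change over all tested genes was -0.085. Interferon-stimulated, MHC class II, myeloid and milk protein genes were among those that rose. Hypoxia genes, mitochondrially encoded genes and many genes of chromosomes 6, 8, 9 and 14 were among those that fell. Limma voom divided its calls more evenly, into 2115 higher and 2208 lower. Without SPON replicate 4, edgeR called 2590 genes higher and 3407 lower.

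**Figure D2:**
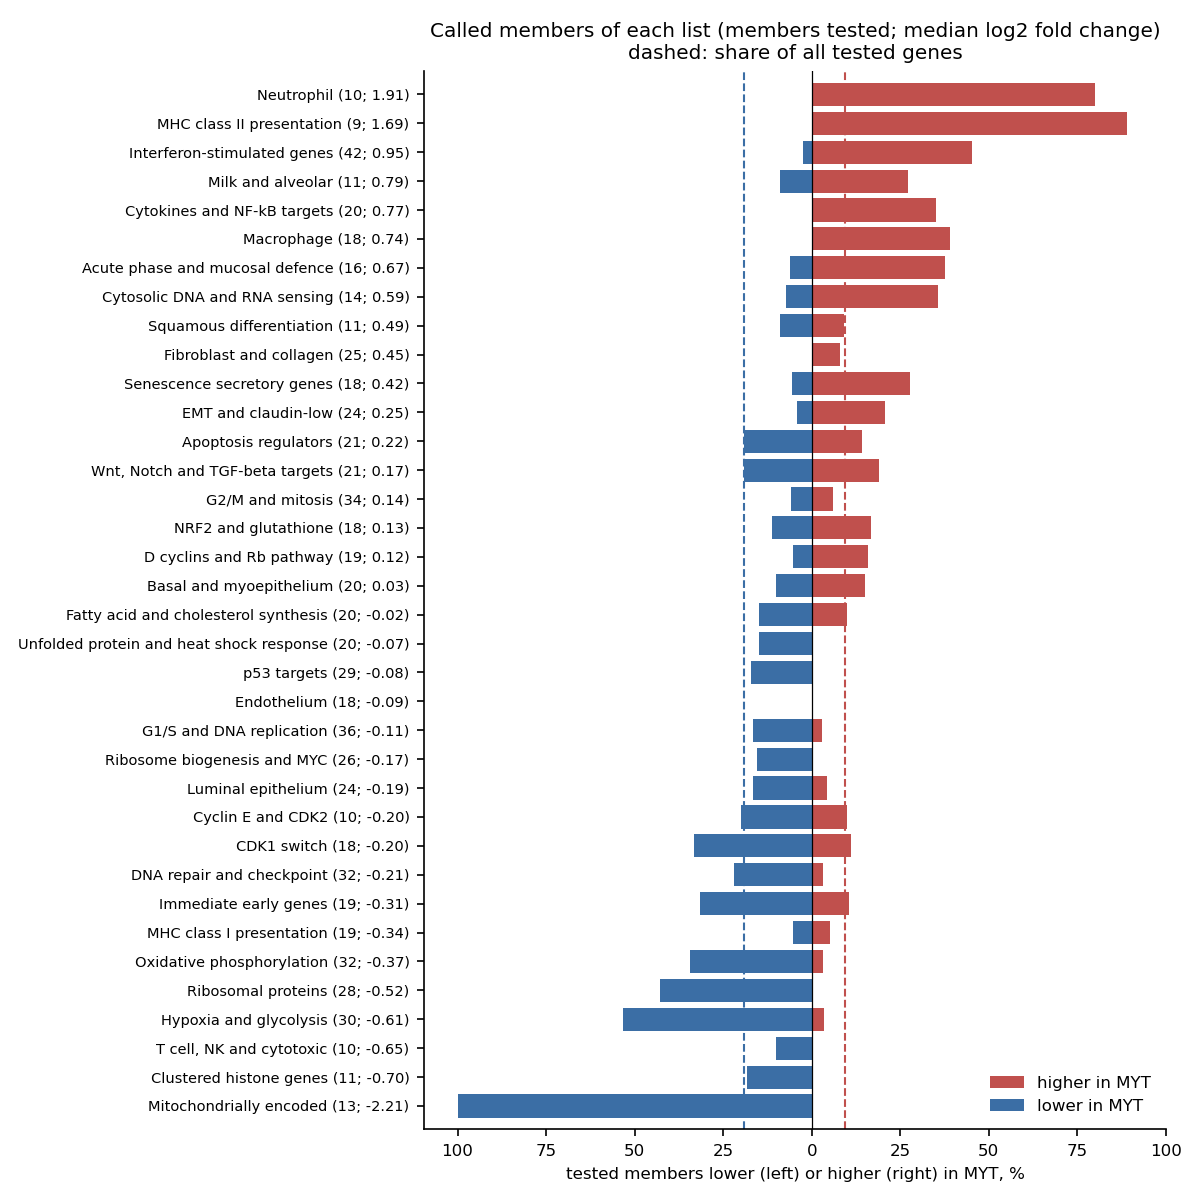
Each bar is the percent of tested members of a gene list called higher (right) or lower (left) in 11 MYT against 5 SPON libraries, with the number tested and the median log2 fold change in parentheses. Dashed lines are the shares over all tested genes, 9.46% higher and 19.1% lower; MHC class II and neutrophil genes reach 88.9% and 80% higher, and all 13 mitochondrially encoded genes were lower.

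Pkmyt1, which encodes the target of the compound, was higher in MYT. Its level was 59.3 to 94.7 CPM in MYT (median 78.6), against 45.8, 35.4, 59.4, 46.5 and 43.7 in SPON replicates 1 to 5. Only SPON replicate 3 reached the lowest MYT library. The log2 fold change was 0.69 ± 0.13 (SE, n = 11 and 5, edgeR adjusted p = 0.00106). Wee1, the other CDK1 inhibitory kinase, spanned 27.5 to 44.9 CPM in MYT and 23.3 to 61.3 in SPON (-0.32 ± 0.19, adjusted p = 0.203). Cdk1 itself lay at 107 to 308 CPM in MYT and 126 to 214 in SPON (0.07 ± 0.23, adjusted p = 0.837). Both kinases overlapped between the groups and did not pass the test. Wee1 passed without SPON replicate 1 (-0.48, adjusted p = 0.0404).

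Of 18 genes of the CDK1 switch, 2 rose (11.1%) and 6 fell (33.3%), against 9.46% and 19.1% of all genes. Cdc25b rose beside Pkmyt1. Bora, a cofactor in the activation of the mitotic kinase PLK1, stood at 14.7 to 23.2 CPM in MYT (median 16.9), against 46.6, 54.6, 30, 29 and 27.3 in SPON. All MYT libraries lay below all SPON libraries at Bora (-1.16 ± 0.17, adjusted p = 0.000143). Ccnb2, a B-type cyclin, fell (-0.84 ± 0.21, adjusted p = 0.00711), as did Ppp2r2d (-0.52 ± 0.12, adjusted p = 0.00313), a regulatory subunit of the phosphatase PP2A. Cdc25a, Arpp19 and Chek1 were the others that fell. Ccnb1, the B cyclin that partners CDK1 in mitosis, gave 0.37 ± 0.21 (adjusted p = 0.198). Of the 6 genes that fell, 5 lie on chromosomes 6, 8, 9 or 14, which held many lower genes of every kind. Off these chromosomes 1 of 13 members fell (7.69%), against 13.7% of all genes there. Without SPON replicate 5, 3 of the list were lower, and without SPON replicates 1 and 5 also 3. Of all genes 2222 of 15850 and 2556 of 16149 were lower in these fits.

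In the cyclin E and CDK2 list, 1 of 10 tested genes rose (10%) and 2 fell (20%), close to the shares over all genes. Ccne1 lay at 2.53 to 7.52 CPM in MYT and at 12.7, 2.63, 9.4, 7.36 and 2.53 in SPON, with overlap (-0.45 ± 0.34, adjusted p = 0.343). Ccne2 did not pass the test either (-0.14 ± 0.27, adjusted p = 0.732). These counts are of the mouse genes as annotated, and a transgene was not analysed here. Cks1b, a CDK-binding protein needed to degrade the inhibitor p27, rose (0.85 ± 0.22, adjusted p = 0.00767). It stood at 186 to 379 CPM in MYT, at 241 in SPON replicate 4 and at 99 to 117 in the other SPON libraries. Cdkn1b, which encodes p27, fell by a small margin (-0.60 ± 0.22, adjusted p = 0.047). SPON replicate 2 stood at 391 CPM of Cdkn1b, against 105 to 168 in the other SPON libraries and 112 to 173 in MYT, and the value was -0.13 (adjusted p = 0.508) without it. The call was lost in 14 of 16 fits that each left out 1 library.

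Among D cyclins and genes of the Rb pathway, 3 of 19 rose (15.8%) and 1 fell (5.26%). E2f1, a transcription factor that Rb holds in check, stood at 93.1 to 141 CPM in MYT, against 54.5, 35.9, 41.3, 75.6 and 24.8 in SPON, without overlap (1.23 ± 0.20, adjusted p = 0.000326). Ccnd1, which encodes cyclin D1, spanned 131 to 774 CPM in MYT (median 460) and 34.3 to 238 in SPON, with overlap (1.66 ± 0.41, adjusted p = 0.00636). E2f3 rose (0.57 ± 0.15, adjusted p = 0.0101) and E2f2 fell (-0.87 ± 0.25, adjusted p = 0.0152). Without SPON replicate 4 the E2f2 call was lost (adjusted p = 0.106).

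Few proliferation and mitosis genes passed the test. Mki67, a marker of cycling cells, lay at 299 to 584 CPM in MYT and at 418 to 526 in SPON replicates 1, 3, 4 and 5, with SPON replicate 2 at 939 (-0.43 ± 0.19, adjusted p = 0.0974). Of 34 G2/M and mitosis genes, 2 rose (5.88%) and 2 fell (5.88%), with a median log2 fold change of 0.14. The count that rose was 7 without SPON replicate 2, where 1546 of all 15813 genes rose. It was 6 without SPON replicate 4, where 2590 of all 15939 genes rose. Of 36 genes of G1/S and DNA replication, Cdc45, a part of the replicative helicase, rose (0.55 ± 0.14, adjusted p = 0.00714) and 6 fell. That share of 16.7% lies near the 19.1% over all genes. Among 32 DNA repair and checkpoint genes 7 fell (21.9%).

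Cdkn1a, the p53 target that encodes p21, spanned 25.9 to 90.3 CPM in MYT and 18.4 to 48.8 in SPON (0.69 ± 0.29, adjusted p = 0.0795). It passed the test without SPON replicate 4 (0.91, adjusted p = 0.0284) and without MYT replicate 9 (0.79, adjusted p = 0.0368). Of 29 tested p53 targets 0 rose and 5 fell (17.2%), with a median log2 fold change of -0.08. At an unadjusted p under 0.05, 6 were higher and 7 lower, where 6388 of all 15695 genes passed in either direction. DESeq2 called 5 higher and 6 lower (1992 and 3102 of all 15695 genes). Limma voom called 3 higher and 2 lower (2115 and 2208 of all 15695 genes). Without SPON replicate 4, 7 rose and 4 fell (2590 and 3407 of all 15939 genes). Without SPON replicate 1, 4 rose and 8 fell (1654 and 3124 of all 15864 genes). Trp53 itself stood at 22.5 to 45.8 CPM in MYT and at 3.58, 30.9, 37.4, 2.39 and 47.2 in SPON (0.36 ± 0.47, adjusted p = 0.593). SPON replicates 1 and 4 were thus far below all other libraries of the contrast at Trp53.

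**Figure D3:**
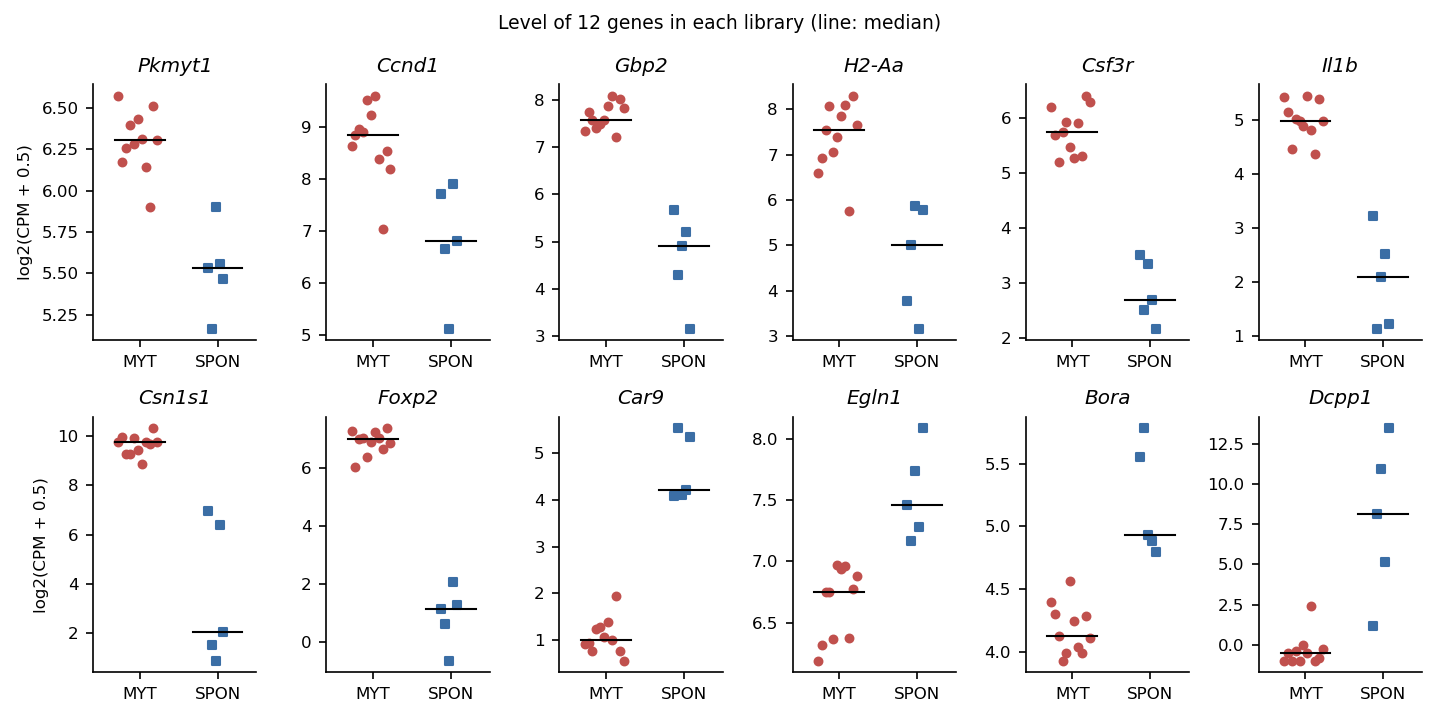
Each panel shows log2(CPM + 0.5) of a gene in every library, MYT as circles and SPON as squares, with the group median as a line; axes differ between panels. Gbp2, Csf3r, Il1b, Csn1s1 and Foxp2 lie higher in all 11 MYT libraries than in all 5 SPON libraries, Car9, Egln1 and Bora lie lower, and Pkmyt1, Ccnd1, H2-Aa and Dcpp1 overlap.

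Interferon-stimulated genes, which carry antiviral proteins and are switched on by STAT and IRF factors, were higher in MYT. Of 42 genes 19 rose (45.2%), against 9.46% of all genes, and Ifi27 fell. The median log2 fold change was 0.95. The members with the smallest p were Gbp2, Gbp3, Gbp5 and Gbp7, which encode guanylate-binding GTPases induced by interferon gamma and are neighbours on chromosome 3. The number that rose was 13 without SPON replicate 2, 28 without SPON replicate 3 and 12 without SPON replicates 1 and 5. Of all genes 1546 of 15813, 1392 of 15895 and 1581 of 16149 rose in these fits. The list's summed level was 1640 to 3260 CPM in MYT and 1100, 564, 1820, 1750 and 552 in SPON, so that SPON replicates 3 and 4 lay within the MYT range.

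Gbp2 stood at 148 to 269 CPM in MYT (median 189), against 50.1, 19.2, 29.7, 36.2 and 8.46 in SPON (2.74 ± 0.31, adjusted p = 2.23e-05). Gbp3 stood at 83.2 to 139 CPM in MYT, against 26.1, 7.13, 19.8, 24 and 7.2 in SPON (2.59 ± 0.29, adjusted p = 2.23e-05). The groups did not overlap at these genes, nor at Gbp5 (2.91 ± 0.41, adjusted p = 0.000118) or Gbp7 (1.84 ± 0.26, adjusted p = 0.000116). SPON replicate 5 was the lowest library at Gbp2 and Gbp7.

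The promoters of 3 of these neighbours are shown because the genes rose together. Each is the 250 bases before the start site, from RefSeq on GRCm38.p6, written 5′ to 3′ on the gene's strand, with matches in capitals, on either strand, to a core of the interferon-stimulated response element (GAAA, any 2 bases, GAAA). The Gbp2 window is chr3:142620413-142620662 on the plus strand, that of Gbp3 is chr3:142559794-142560043 on the plus strand, and that of Gbp7 is chr3:142530086-142530335 on the plus strand.
Gbp2: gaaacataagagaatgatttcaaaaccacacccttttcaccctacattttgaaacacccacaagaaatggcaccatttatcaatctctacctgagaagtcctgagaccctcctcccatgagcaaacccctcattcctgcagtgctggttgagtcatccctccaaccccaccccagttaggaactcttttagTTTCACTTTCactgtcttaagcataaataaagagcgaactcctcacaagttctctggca
Gbp3: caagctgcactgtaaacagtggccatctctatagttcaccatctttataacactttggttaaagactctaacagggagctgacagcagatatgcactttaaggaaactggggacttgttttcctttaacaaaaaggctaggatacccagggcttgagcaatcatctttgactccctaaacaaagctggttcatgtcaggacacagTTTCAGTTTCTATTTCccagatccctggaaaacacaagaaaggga
Gbp7: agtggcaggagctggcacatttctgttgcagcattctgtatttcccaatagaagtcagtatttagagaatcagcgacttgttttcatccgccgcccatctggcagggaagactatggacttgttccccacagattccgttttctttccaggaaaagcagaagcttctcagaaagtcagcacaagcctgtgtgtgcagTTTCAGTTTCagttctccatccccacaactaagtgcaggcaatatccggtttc
In Gbp3 the 2 matches overlap each other. Of the 42 interferon-stimulated genes 32 had a promoter in the table. The core was in 15 of these (46.9%), against 2.98% of 32851 promoters of the same length. Members that did not pass the test, such as Isg15 and Rsad2, held it too. The list was drawn up from genes known to be induced by interferon, so a high share could be foreseen. It says nothing about the change in MYT.

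Of 14 tested genes that sense cytosolic DNA and RNA, 5 rose (35.7%) and 1 fell (7.14%), against 9.46% and 19.1% of all genes. Tmem173, which encodes the adaptor STING, stood at 97.1 to 170 CPM in MYT, against 86.8, 23, 35.5, 66.6 and 45.8 in SPON, without overlap (1.15 ± 0.24, adjusted p = 0.0018). Ikbke, a kinase of the same pathway, rose (1.11 ± 0.29, adjusted p = 0.0092), and Irf3, the transcription factor that STING signalling activates, fell (-0.45 ± 0.12, adjusted p = 0.00989). Without SPON replicate 5 the Irf3 call was lost (adjusted p = 0.0599).

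Of 9 tested MHC class II genes, which serve the display of peptides taken up from outside the cell, 8 rose (88.9%), with a median log2 fold change of 1.69. H2-Aa, a chain of the class II molecule, spanned 53.9 to 312 CPM in MYT (median 186), against 13.1, 31.7, 58, 8.46 and 54 in SPON (2.40 ± 0.47, adjusted p = 0.00126). The lowest MYT library lay within the SPON range. H2-Ab1 (2.11 ± 0.43, adjusted p = 0.0016) and Cd74, the invariant chain (2.0 ± 0.40, adjusted p = 0.00139), rose as well. Of 19 MHC class I genes, 1 rose (5.26%) and 1 fell (5.26%). Tapbp, which helps load peptide onto class I molecules, rose without overlap (0.80 ± 0.20, adjusted p = 0.0062). H2-T23 fell (-0.72 ± 0.22, adjusted p = 0.0224), and gave -0.33 (adjusted p = 0.201) without SPON replicate 3. Whether class I and class II genes differed in their change was not tested.

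Neutrophil genes had a median log2 fold change of 1.91, and 8 of 10 tested markers rose (80%). Ly6g and Camp were not tested. Csf3r, the receptor for the growth factor G-CSF, stood at 36.6 to 84.3 CPM in MYT (median 53.7), against 10.9, 5.22, 9.67, 6 and 4.03 in SPON (2.89 ± 0.28, adjusted p = 5.89e-06). Cxcr2, a chemokine receptor of neutrophils, stood at 11.4 to 27.7 CPM in MYT, against 5.84, 1.76, 0.749, 0.968 and 0.554 in SPON (3.11 ± 0.48, adjusted p = 0.00022). All MYT libraries were above all SPON libraries at both, and the Cxcr2 value was 4.05 without SPON replicate 1, the highest of its group. Trem1, an activating myeloid receptor (2.23 ± 0.40, adjusted p = 7e-04; 2.95 without SPON replicate 4), and Clec4d, a lectin receptor (1.27 ± 0.29, adjusted p = 0.00394), also separated the groups. The summed level of the list was 124 to 268 CPM in MYT and 90.1, 28.9, 19.7, 60.9 and 15.8 in SPON.

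Of 18 macrophage markers 7 rose (38.9%), with a median log2 fold change of 0.74. Adgre1, which encodes F4/80, stood at 9.38 to 30.5 CPM in MYT, against 3.66, 6.51, 9.12, 7.55 and 5.3 in SPON, without overlap (1.28 ± 0.30, adjusted p = 0.00473). Lyz2, which encodes lysozyme, did not overlap either (1.33 ± 0.32, adjusted p = 0.00554). Csf1r, the receptor of the macrophage growth factor, rose (1.14 ± 0.23, adjusted p = 0.0016), as did C1qa, a complement subunit (0.99 ± 0.28, adjusted p = 0.0138). The summed level overlapped, at 2680 to 5980 CPM in MYT and 1420, 1470, 4340, 1380 and 3310 in SPON. Without SPON replicate 2, 4 markers rose (1546 of all 15813 genes).

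Myeloid receptors and cytokines were also among the genes with the smallest p that rose. Csf1, the ligand of Csf1r, stood at 106 to 197 CPM in MYT, against 34, 42.7, 69.6, 39.4 and 37 in SPON (1.66 ± 0.18, adjusted p = 1.57e-05). Csf2rb, the receptor chain shared by GM-CSF and related cytokines, rose (2.08 ± 0.21, adjusted p = 9.78e-06), as did Cd33, a sialic acid receptor of myeloid cells (2.52 ± 0.26, adjusted p = 9.62e-06). Mefv, which encodes the inflammasome protein pyrin, rose as well (3.52 ± 0.39, adjusted p = 1.72e-05). Every MYT library lay above every SPON library at these 4 genes.

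Of 20 tested cytokine and NF-kB target genes 7 rose (35%). Il1b, a cytokine of activated myeloid cells, stood at 20 to 42.8 CPM in MYT, against 8.79, 1.7, 3.74, 5.23 and 1.82 in SPON (2.84 ± 0.35, adjusted p = 4.36e-05). Cxcl1, a chemokine that attracts neutrophils, stood at 47 to 113 CPM in MYT, against 42.5, 27.9, 25.1, 7.88 and 5.38 in SPON (1.71 ± 0.39, adjusted p = 0.00346). Neither gene overlapped between the groups. Lif, a cytokine of the IL-6 family, rose (2.11 ± 0.51, adjusted p = 0.0051; 2.73 without SPON replicate 4). Without SPON replicate 4, 12 genes of the list rose (2590 of all 15939 genes).

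Lymphocyte markers were low. Of 24 T cell, NK and cytotoxic genes 10 were tested, of which 1 fell. Their summed level was 12.5 to 44.4 CPM in MYT and 21.6, 17.3, 131, 9.88 and 43.9 in SPON, with SPON replicate 3 the highest. Of 12 B and plasma cell genes 3 were tested and 2 fell. Igkc, an antibody light chain, stood at 0 to 6.3 CPM in MYT and at 0.778, 0.465, 237, 3.81 and 80.9 in SPON, so that SPON replicates 3 and 5 were high (-5.89 ± 1.10, adjusted p = 0.000904; -4.23 without SPON replicate 3 and -6.66 without MYT replicate 2). None of 18 endothelial genes passed edgeR's test (median log2 fold change -0.09), with 2 higher and 2 lower at an unadjusted p under 0.05, and DESeq2 called 2 lower and limma voom 0. Of 25 fibroblast and collagen genes 2 rose (8%), and 6 did without SPON replicate 5 (1311 of all 15850 genes).

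Casein genes were among the largest increases. Csn1s1, the alpha casein gene, stood at 459 to 1260 CPM in MYT (median 854), against 122, 2.43, 1.36, 84.4 and 3.64 in SPON (4.18 ± 0.89, adjusted p = 0.00224). Csn2, the beta casein gene, stood at 120 to 1230 CPM in MYT, against 52.8, 2.22, 2.86, 95.4 and 3.24 in SPON (4.21 ± 0.94, adjusted p = 0.00315). The groups did not overlap, and SPON replicates 1 and 4 were the high libraries of their group at both genes. The Csn1s1 value was 5.07 without SPON replicate 1, and the Csn2 value 5.27 without SPON replicate 4. Of 11 tested milk and alveolar genes 3 rose (27.3%), the other being Btn1a1, which encodes the milk fat protein butyrophilin (2.71 ± 0.64, adjusted p = 0.00444). The number was 6 without SPON replicate 4 (2590 of all 15939 genes). Prl2c3 (5.13 ± 0.94, adjusted p = 0.000823; 6.49 without SPON replicate 4) and Prl2c2 (4.19 ± 0.91, adjusted p = 0.00255; 5.10 without SPON replicate 4), which encode secreted proliferins of the prolactin family, rose. These are close copies, so reads may be divided between them uncertainly.

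Epithelial markers were present in both groups. Epcam, the epithelial adhesion molecule, was chosen with its values in view and stood at 969 to 1930 CPM in MYT and 1170 to 1690 in SPON (-0.05 ± 0.19, adjusted p = 0.862). Of 24 tested luminal genes 1 rose and 4 fell (16.7%). Cdh1, which encodes E-cadherin, fell (-0.60 ± 0.19, adjusted p = 0.024), and its adjusted p was 0.0712 without SPON replicate 2 and 0.0703 without SPON replicate 3. Of 24 genes of epithelial-mesenchymal transition 5 rose (20.8%) and 1 fell (4.17%). Without SPON replicate 1, 8 of the list rose (1654 of all 15864 genes). Axl, a receptor kinase (1.14 ± 0.27, adjusted p = 0.00476), and Tgfbi, a matrix protein induced by TGF-beta (1.47 ± 0.31, adjusted p = 0.00222), were among those that rose.

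Foxp2, a forkhead transcription factor, had the largest increase in log2 fold change among the genes described here. It stood at 65.1 to 166 CPM in MYT (median 130), against 1.71, 1.03, 0.136, 3.68 and 1.9 in SPON, without overlap (6.11 ± 0.47, adjusted p = 3.72e-07). Vehicle-treated tumours with VEH in their titles held 0.643 to 14.4 CPM, untreated tumours titled WT 0 to 0.167, vehicle-treated VEH_7 tumours 0 to 0.138 and RP-6306-treated M20_7 tumours 0 to 0.191. Wdr47, a microtubule-related gene (1.76 ± 0.16, adjusted p = 2.58e-06), and C1qtnf12, which encodes a secreted C1q-related protein (2.52 ± 0.25, adjusted p = 7.23e-06), also lay higher in every MYT library than in every SPON library.

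Other large increases rested on few libraries or few counts. Saa1, an acute phase protein gene, spanned 0.126 to 26 CPM in MYT and was at 0 in 4 SPON libraries (5.93 ± 1.64, adjusted p = 0.0121; 8.89 without SPON replicate 2 and 4.67 without MYT replicate 11). Chil3, a chitinase-like protein gene of myeloid cells, spanned 0 to 26.3 CPM in MYT and 0 to 0.839 in SPON (4.23 ± 1.49, adjusted p = 0.0411; 5.65 without SPON replicate 4 and 3.46, adjusted p = 0.0669, without MYT replicate 5). Iapp, which encodes amylin, spanned 0.128 to 22.2 CPM in MYT and 0 to 0.7 in SPON (4.28 ± 1.38, adjusted p = 0.0266; 6.97 without SPON replicate 1 and 2.94 without MYT replicate 11). The Chil3 call was lost without any 1 of MYT replicates 5 and 8 and SPON replicates 1, 2, 3 and 5 (adjusted p up to 0.084), and the Iapp call without SPON replicate 2, 3 or 5 (up to 0.0613). In the Hoxc cluster of body axis genes (chosen after its values were seen), Hoxc10 had 228 counts over the MYT libraries and 1 count over the SPON libraries, a ratio of 93.4 after division by the summed TMM-scaled library totals (exact 95% interval 16.6 to 3700, counting error only).

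Among the genes named by the size of their log2 fold change, the largest decreases were at Dcpp1, Bpifb5 and Dcpp2. Dcpp1 and Dcpp2 encode demilune cell secretory proteins, Bpifb1 and Bpifb5 encode secreted lipid-binding proteins, and Pigr encodes the receptor that carries antibody across epithelia. Dcpp1 stood at 0 to 4.91 CPM in MYT and at 1.79, 279, 1970, 34.9 and 11300 in SPON (-12.27 ± 1.55, adjusted p = 5.26e-05). Bpifb5 stood at 0 to 2.17 CPM in MYT and at 1.17, 0.31, 946, 23.8 and 952 in SPON (-10.85 ± 1.45, adjusted p = 8.52e-05). SPON replicates 3 and 5 were the high libraries, and SPON replicate 1 lay within the range of MYT at both genes.

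Bpifb1 stood at 0 to 2.51 CPM in MYT and at 15.8, 9.14, 526, 50.9 and 178 in SPON, without overlap (-8.99 ± 1.0, adjusted p = 1.9e-05). Dcpp2 (-10.50 ± 1.38, adjusted p = 7.28e-05) and Pigr (-7.20 ± 1.0, adjusted p = 0.000114) fell with them. Pitx1, a homeobox gene of pituitary and hindlimb (-8.98 ± 1.32, adjusted p = 0.000162), Agt, which encodes angiotensinogen (-8.68 ± 1.29, adjusted p = 0.000166), and Dmrta1, a DM-domain transcription factor gene (-9.0 ± 0.85, adjusted p = 3.93e-06), fell too. Pitx1 stood at 0 to 0.721 CPM in MYT and at 0, 0, 235, 4.58 and 408 in SPON, with overlap. Its call was lost with limma voom, with and without sample weights, and without SPON replicates 3 and 5. Without SPON replicate 5 the values were -9.96 for Dcpp1, -7.61 for Dcpp2, -10.12 for Bpifb5, -5.81 for Pigr, -5.58 for Agt and -8.29 for Dmrta1. Without SPON replicate 3 they were -7.63 for Bpifb1 and -10.15 for Bpifb5. Values against groups at or near 0 also moved with single MYT libraries, to -14.0 for Dcpp1 without MYT replicate 8, -10.32 for Bpifb1 without MYT replicate 2 and -9.73 for Dmrta1 without MYT replicate 11. Dcpp1 and Dcpp2 are close copies, and reads may be divided between them uncertainly. Bpifa2, a salivary protein gene chosen after its values were seen, had 0 counts in MYT and stood at 0, 0.775, 387, 13.3 and 32400 CPM in SPON.

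The decrease of Fgfr2, a fibroblast growth factor receptor gene, rested on 1 library (-8.30 ± 1.37, adjusted p = 0.000393). It stood at 5060 CPM in SPON replicate 5, at 0.581 to 41.2 in the other SPON libraries and at 0.928 to 8.55 in MYT. Without SPON replicate 5 the value was -1.88 (adjusted p = 0.058). Ate1, an arginyltransferase gene on the same chromosome, was picked with its values in view and stood at 2350 CPM in that library, at 14.4 to 40.4 in the other SPON libraries and at 21.7 to 35.2 in MYT. Its value of -4.16 became 0.05 without SPON replicate 5.

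Hypoxia and glycolysis genes were lower in MYT. Cells short of oxygen stabilise HIF1A, which binds the core sequence ACGTG and raises carbonic anhydrase 9, glycolytic enzymes and the hydroxylases that mark HIF1A for destruction. Of 30 genes 16 fell (53.3%), against 19.1% of all genes, and Pfkfb4 rose. The median log2 fold change was -0.61.

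Car9, which encodes carbonic anhydrase 9, stood at 0.973 to 3.35 CPM in MYT (median 1.51), against 16.6, 45.9, 16.8, 18.2 and 40.4 in SPON (-4.10 ± 0.30, adjusted p = 2.48e-07). Vehicle-treated tumours titled VEH held 17 to 35.7 CPM, WT tumours 27.9 to 86.1 and vehicle-treated VEH_7 tumours 8.84 to 16.1. The M20_7 tumours, which also had RP-6306, held 2.53 to 7.15 CPM, and their range overlapped that of MYT. Every MYT library lay below every SPON, VEH, WT and VEH_7 library.

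Egln1, an oxygen-sensing hydroxylase gene, stood at 72.4 to 125 CPM in MYT, against 175, 143, 213, 155 and 271 in SPON, without overlap (-0.98 ± 0.16, adjusted p = 4e-04). Gpi1 (-1.17 ± 0.23, adjusted p = 0.00142) and Hk2 (-0.87 ± 0.19, adjusted p = 0.00247), which encode enzymes of early glycolysis, fell with overlap between the groups. Untreated WT tumours held 39 to 118 CPM of Egln1. They held 17.1 to 54 CPM of Hk2, against 41.7 to 81 in MYT, and 328 to 598 of Gpi1, against 254 to 488. Unlike at Car9, the WT and MYT ranges thus overlapped at each of these genes. Of the genes that fell, 6 lie on chromosomes 6, 8, 9 or 14. Off these chromosomes 10 of 22 members fell (45.5%), against 13.7% of all genes there. Without SPON replicates 1 and 5, which had the high mitochondrial share, 7 members fell, against 2556 of all 16149 genes. Without SPON replicate 5 alone 9 members fell, against 2222 of all 15850 genes. The part of the mitochondrial share in these counts was not tested further.

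The promoters of Car9, Egln1 and Hk2 are shown because these members with the smallest p hold the core ACGTG, in capitals where it matches on either strand, while Gpi1 has no match in this window. Each is again the 250 bases before the start, from RefSeq on GRCm38.p6. The Car9 window is chr4:43506776-43507025 on the plus strand, that of Egln1 is chr8:124949255-124949504 on the minus strand, and that of Hk2 is chr6:82774455-82774704 on the minus strand.
Car9: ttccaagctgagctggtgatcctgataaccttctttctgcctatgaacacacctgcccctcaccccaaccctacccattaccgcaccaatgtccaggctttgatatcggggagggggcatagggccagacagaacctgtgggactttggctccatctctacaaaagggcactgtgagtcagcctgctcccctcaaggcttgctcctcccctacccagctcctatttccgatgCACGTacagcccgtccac
Egln1: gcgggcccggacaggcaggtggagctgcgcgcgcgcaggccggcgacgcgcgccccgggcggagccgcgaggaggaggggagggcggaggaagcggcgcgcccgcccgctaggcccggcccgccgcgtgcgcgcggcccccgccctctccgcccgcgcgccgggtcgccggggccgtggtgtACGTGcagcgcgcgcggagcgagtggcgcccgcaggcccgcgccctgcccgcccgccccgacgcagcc
Hk2: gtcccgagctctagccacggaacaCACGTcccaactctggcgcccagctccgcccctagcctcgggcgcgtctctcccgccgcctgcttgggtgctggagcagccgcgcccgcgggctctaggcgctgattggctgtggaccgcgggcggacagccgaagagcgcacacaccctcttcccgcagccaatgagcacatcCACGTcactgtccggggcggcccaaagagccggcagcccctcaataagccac
Of 29 members with a promoter sequence, 14 held the core (48.3%), against 16.6% of 32851 promoters. Ldha and Pgk1, which did not pass the test, held it as well. The list was drawn up from hypoxia and glycolysis genes, so a high share could be foreseen. It says nothing about the change in MYT.

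All 13 mitochondrially encoded genes fell, with a median log2 fold change of -2.21. mt-Cytb, which encodes cytochrome b, stood at 3710 to 7370 CPM in MYT and at 48700, 9100, 6590, 5340 and 82000 in SPON (-2.61 ± 0.47, adjusted p = 0.000716; -1.79 without SPON replicate 5). SPON replicates 1 and 5 were far above all others, and SPON replicates 3 and 4 lay within the MYT range. Limma voom with sample weights called 8 of the 13. Without replicates 1 and 5, 0 of these genes were called. Of 32 nuclear genes of oxidative phosphorylation 11 fell (34.4%), against 19.1% of all genes. Of these 6 lie on chromosomes 6, 8, 9 or 14, and elsewhere 5 of 25 fell (20%), against 13.7% of all genes there. Without SPON replicates 1 and 5, 7 of the list fell (2556 of all 16149 genes). Of 28 ribosomal protein genes 12 fell (42.9%), against 19.1% of all genes. Of these 6 lie on chromosomes 6, 8, 9 or 14, and elsewhere 6 of 22 fell (27.3%), against 13.7% of all genes there. Of the whole list 3 fell without SPON replicates 1 and 5 (2556 of all 16149 genes). These genes took 2.25% of the counts in SPON replicate 1, 1.52 to 1.7% in the other SPON libraries and 1.14 to 1.79% in MYT.

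Genes of other metabolic and stress programmes moved in both directions. Nfe2l2, which encodes the oxidative stress regulator NRF2, rose (0.98 ± 0.18, adjusted p = 0.000883), and so did Slc7a11, the cystine transporter that it controls (1.72 ± 0.29, adjusted p = 0.000492). Keap1, the adaptor that has NRF2 degraded, fell (-0.53 ± 0.11, adjusted p = 0.00193). Gclc, another member of the NRF2 and glutathione list, also fell (-0.70 ± 0.15, adjusted p = 0.003). Of 18 genes of that list 3 rose (16.7%) and 2 fell (11.1%), against 9.46% and 19.1% of all genes. Without SPON replicate 1, 6 rose (1654 of all 15864 genes). Scd1, a fatty acid desaturase gene, stood at 536 to 1560 CPM in MYT, against 300, 119, 83.7, 391 and 40.3 in SPON, without overlap (2.13 ± 0.43, adjusted p = 0.00146). Of 20 genes of fatty acid and cholesterol synthesis 2 rose (10%) and 3 fell (15%), with a median log2 fold change of -0.02. Those that fell were Me1, Fdft1 and Acss2. Of 19 immediate early genes 2 rose (10.5%) and 6 fell (31.6%), the latter with Ier2 (-0.60 ± 0.11, adjusted p = 0.000729) and Nr4a1 (-1.67 ± 0.32, adjusted p = 0.00106) and the former with Egr2 (1.60 ± 0.30, adjusted p = 9e-04). Id2, an inhibitor of bHLH factors, fell (-2.30 ± 0.30, adjusted p = 6.93e-05).

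Genes that fell were unevenly placed on the genome. On chromosomes 8, 14, 9 and 6, 46.4%, 46.3%, 41.1% and 33.2% of tested genes were lower, with medians of the log2 fold change of -0.56, -0.53, -0.50 and -0.40. These chromosomes, picked for their medians, held 19.2% of the tested genes and 41.7% of the genes that fell. Elsewhere 13.7% of genes were lower. Chromosomes 19 and 3 had the highest medians, 0.32 and 0.25.

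A score was computed for each chromosome and library as the median over its genes of log2(CPM + 0.5) minus the gene's mean over the 16 libraries, relative to the autosomes. On chromosome 14 MYT scored -0.19 to -0.08, against 0.34, 0.46, 0.45, 0.26 and -0.07 in SPON. On chromosome 8 MYT scored -0.38 to -0.04, against 0.05, 0.10, 0.87, 0.30 and 0.23. The groups did not overlap on these chromosomes, nor on chromosomes 3, 16 and 19, where MYT was higher. On chromosome 9 SPON replicate 4 scored -0.05, level with the highest MYT library. On chromosome 6 SPON replicate 2 scored 0.55, and the others -0.08 to 0.29. DNA copy number was not analysed here.

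**Figure D4:**
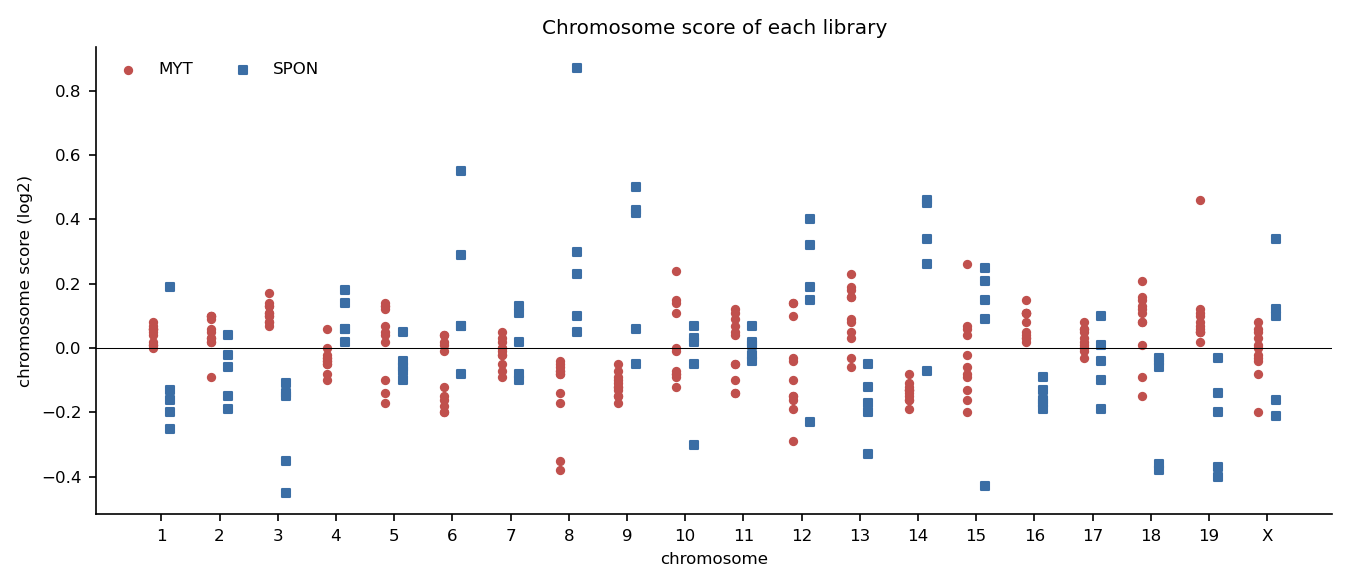
Chromosome score (log2) of each of 11 MYT libraries (circles) and 5 SPON libraries (squares) for the autosomes and X. MYT lies below SPON without overlap on chromosomes 8 and 14 and above it on chromosomes 3, 16 and 19, and SPON replicate 3 reaches 0.87 on chromosome 8.

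Neighbouring genes moved together in 20 stretches, of which 8 were higher and 12 lower. Each held at least 4 genes, adjacent among the tested protein-coding genes, all called in 1 direction with a fold of at least 2. The 13 mitochondrially encoded genes, not called without SPON replicates 1 and 5, were 1 of the lower stretches. Some stretches held genes whose call rested on 1 library, such as Cftr. Gbp genes on chromosome 3, Slfn genes on chromosome 11, Trem genes on chromosome 17 and Clec4 genes on chromosome 6 made up higher stretches. On chromosome 6 lay 6 of the lower stretches. The genes described next on chromosomes 9 and 6 were chosen in part after their values were seen.

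Several of the decreases with the smallest p lay in a stretch of chromosome 9 from Gk5 to Rasa2 (GRCm38, chr9:96119362-96631617). Gk5, a glycerol kinase gene, stood at 0.0503 to 0.78 CPM in MYT, against 9.65, 31.2, 34.2, 20.2 and 14.3 in SPON (-5.65 ± 0.40, adjusted p = 2.48e-07). Tfdp2, a partner of the E2F factors, stood at 0.821 to 4 CPM in MYT, against 31.6, 90.3, 29.5, 44.5 and 36.9 in SPON (-4.75 ± 0.35, adjusted p = 2.48e-07). Atp1b3, a subunit of the sodium pump, stood at 14.2 to 30.5 CPM in MYT, against 321, 98.4, 109, 143 and 184 in SPON (-3.06 ± 0.23, adjusted p = 2.48e-07). All MYT libraries were below all SPON libraries at these genes.

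Rnf7, a subunit of cullin ubiquitin ligases, and Rasa2, a Ras GTPase-activating protein, complete the stretch. Rnf7 stood at 3.85 to 10.2 CPM in MYT, against 103, 59.9, 68.1, 3.74 and 97.4 in SPON (-3.48 ± 0.42, adjusted p = 3.51e-05). Rasa2 stood at 1.58 to 4.46 CPM in MYT, against 10.7, 27.1, 17, 0.839 and 18.4 in SPON (-2.52 ± 0.44, adjusted p = 0.000552). SPON replicate 4 was below every MYT library at both. Vehicle-treated tumours titled VEH held 53.9 to 74.6 CPM of Rnf7 and 161 to 210 of Atp1b3, and RP-6306-treated M20_7 tumours 64.9 to 83.8 and 222 to 243. Xrn1 on one side of the stretch (-0.33 ± 0.16, adjusted p = 0.128) and Zbtb38 on the other (0.29 ± 0.28, adjusted p = 0.449) did not pass the test. Zcchc3, a zinc finger gene on chromosome 2, also had 1 of the smallest p-values, at 0.339 to 1.65 CPM in MYT and 8.48 to 19 in SPON (-4.05 ± 0.37, adjusted p = 3.16e-06).

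**Figure D5:**
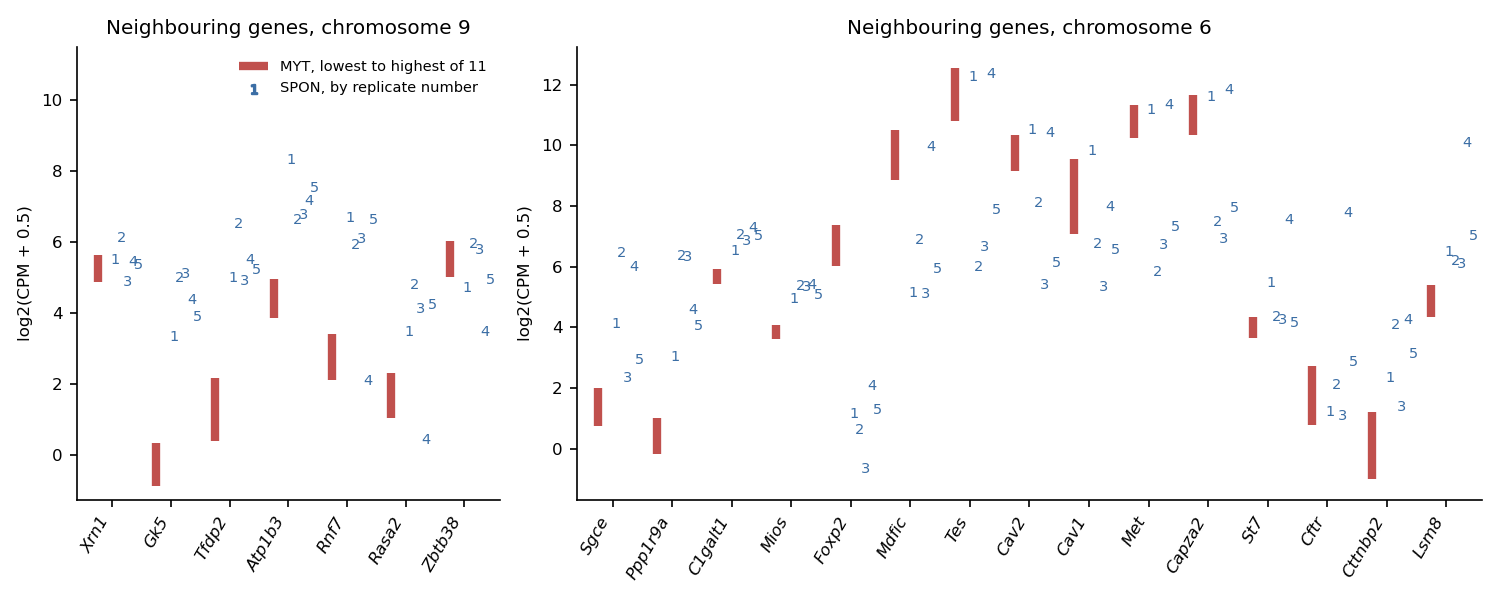
log2(CPM + 0.5) of neighbouring genes in genome order on chromosome 9 (left) and chromosome 6 (right); the bar spans the 11 MYT libraries and the digits are the 5 SPON libraries by replicate number. Gk5, Tfdp2 and Atp1b3 lie lower in MYT than in every SPON library, SPON replicate 4 drops below MYT at Rnf7 and Rasa2, and from Mdfic to Capza2 it lies within the MYT range or, at Cav2 and Capza2, just above it.

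On chromosome 6 the genes before, within and after a stretch from Foxp2 to Capza2 differed. Before Foxp2 24 of 31 tested protein-coding genes were lower and 0 higher, with a median log2 fold change of -1.30. From Foxp2 to Capza2 2 of 8 were higher and 0 lower, with a median of 0.82. From St7 to 29 Mb 16 of 20 were lower, with a median of -1.62. Over the rest of the chromosome the median was -0.41.

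Ppp1r9a, which encodes an actin-binding scaffold and lies before Foxp2, stood at 0.379 to 1.51 CPM in MYT, against 7.63, 80.4, 79.7, 23.2 and 16.1 in SPON (-5.50 ± 0.44, adjusted p = 6.84e-07). Mios, a nutrient-sensing gene (-1.42 ± 0.12, adjusted p = 9.61e-07), and C1galt1, a glycosyltransferase gene (-1.36 ± 0.12, adjusted p = 1.65e-06), fell without overlap as well. Sgce (-4.06 ± 0.50, adjusted p = 4.17e-05; -3.39 without SPON replicate 2) and Peg10 (-3.40 ± 0.56, adjusted p = 0.000404; -2.24 without SPON replicate 4), imprinted neighbours, also fell.

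Met, the hepatocyte growth factor receptor gene, stood at 1210 to 2560 CPM in MYT (median 2030), against 2300, 56.4, 104, 2550 and 158 in SPON (0.89 ± 0.65, adjusted p = 0.318). Tes, a focal adhesion gene, stood at 1780 to 6060 CPM in MYT, against 4900, 63, 101, 5270 and 231 in SPON (0.76 ± 0.75, adjusted p = 0.47). Capza2, an actin capping gene, stood at 1310 to 3270 CPM in MYT, against 3100, 179, 120, 3600 and 247 in SPON (0.70 ± 0.61, adjusted p = 0.411). None of these passed the test. SPON replicates 1 and 4 were as high as MYT, while SPON replicates 2, 3 and 5 were low. Without SPON replicate 4 the values were 1.57 for Met, 1.44 for Tes and 1.39 for Capza2, and none passed (adjusted p = 0.0886, 0.179 and 0.106). Met stood at 1060 to 2080 CPM in VEH tumours, 64 to 121 in WT, 748 to 983 in VEH_7 and 743 to 940 in M20_7.

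The genes at either end differed between SPON libraries. Mdfic, next to Foxp2, stood at 464 to 1460 CPM in MYT and at 34.4, 117, 33.9, 979 and 59.9 in SPON, with only SPON replicate 4 as high as MYT (1.77 ± 0.66, adjusted p = 0.0518). Without SPON replicate 4 Mdfic passed the test at 3.79 (adjusted p = 9.01e-06), and without MYT replicate 9 at 1.86 (adjusted p = 0.0493). Lsm8, an RNA-processing gene after Capza2, stood at 19.8 to 42 CPM in MYT and at 89.3, 73.3, 67, 1080 and 130 in SPON (-3.34 ± 0.48, adjusted p = 0.000148; -1.63 without SPON replicate 4). St7 stood at 12 to 19.9 CPM in MYT and at 44.1, 19.6, 18.4, 184 and 17.4 in SPON (-1.89 ± 0.40, adjusted p = 0.00222; -0.67 without SPON replicate 4). SPON replicate 4 was the highest library at both. Cftr, the chloride channel gene, stood at 220 CPM in SPON replicate 4, at 1.63 to 6.72 in the other SPON libraries and at 1.22 to 6.18 in MYT. Its value of -3.96 became -0.19 (adjusted p = 0.766) without that library.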

How the data were processed

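RNA of mouse mammary tumours was extracted with Trizol and sequenced by Illumina protocols, per the labels' protocols. The deposited counts are raw reads per gene. The submitters' processing notes name STAR 2.7.10a, HTSeq, edgeR and build GRCm38. Strand setting and annotation release are not given in the sources used here. A second deposited table, which the authors named CPM, holds log2 values. They differed from log2 CPM recomputed from the counts by 0.0576 at most and were used for this check only. The 11 MYT and 5 SPON libraries were grouped by title, and replicates are numbered in accession order. The counts were tested with edgeR 4.0.16 in R 4.3.3: low counts were removed with filterByExpr, libraries were scaled by TMM, and p-values of the quasi-likelihood test were adjusted by Benjamini-Hochberg over all 15695 genes, with a threshold of 0.05. Genes with an identifier but no symbol, kept in the fit and not named, held 0.0482% of the counts. Values are log2 fold changes of MYT minus SPON ± SE. The SE was derived from the test, as the absolute log2 fold change divided by the square root of its F value. It is approximate, above all where a group is at or near 0. Levels are CPM scaled over all 33 libraries and are not divided by gene length, so they compare libraries and not genes. Within groups, none of 65 library pairs agreed within sampling noise (lowest chi-square 16.1 times its degrees of freedom).

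Groups, members and gene lists were chosen with earlier results of these data known. Genes named are a core set, the 8 highest and 8 lowest log2 fold changes among called genes of average log2 CPM of at least 1, the 8 of smallest p in each direction and up to 4 of smallest p per list. Others are marked as chosen with values in view. On counts simulated for this comparison, edgeR recovered 0%, 36%, 64% and 94% of genes changed by folds of 1.5, 2, 4 and 8, with 0 false calls among unchanged genes. The simulation changed 50 genes per fold and gave both groups the same spread at each gene. In these data SPON libraries lay farther apart than MYT libraries and many more genes were called. The simulation therefore does not give the error rate of the calls reported here. Alternatives were DESeq2 size factors, no filter, DESeq2 1.42.0, limma 3.58.1 voom with and without sample weights, a fold of 2 as the null, a fit over 32 libraries, ranges of MYT titles and single libraries left out. Leaving out several SPON libraries, or the mitochondrially encoded genes, was chosen after seeing the data.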

Additional observations from a re-analysis of the deposited data

Results flagged for a closer look

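Among 131 values checked over the 5 SPON libraries, 16 had a library whose gap to the nearest other exceeded 0.71 of the group's range, taken on log2(CPM + 0.5) for genes and on the values themselves for library shares and chromosome scores. For normally distributed values the limit marks about 1 in 20 groups. A gene with reads in only 1 of the libraries, such as Hoxc10 or Saa1, always exceeds it. Some genes were also chosen with their values in view, so the number found cannot be set against that rate. The 11 MYT libraries were too many for this check. SPON replicate 4 accounted for 7 of the values. It was the highest of its group at Cftr (220 CPM), Lsm8 (1080 CPM), Cks1b (241 CPM), Csf2rb (16.5 CPM), Hoxc10 (0.0646 CPM) and in the chromosome 1 score (0.19), and the lowest at Rnf7 (3.74 CPM). SPON replicate 2 was the highest at Mki67 (939 CPM), Hk2 (175 CPM) and Saa1 (0.207 CPM) and the lowest in the chromosome 15 score (-0.43). SPON replicate 5 was the highest at Ate1 (2350 CPM) and the lowest at Cd33 (3.08 CPM) and Gbp7 (5.46 CPM). SPON replicate 1 was the highest at Iapp (0.7 CPM) and in the percent of counts in ribosomal protein genes (2.25%).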

How the results depend on the processing

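Genes called, higher and lower numbered 2137, 806 and 1331 with limma voom and sample weights, 580, 142 and 438 against a fold of 2, 858, 241 and 617 with only MYT replicates 1, 2, 8, 9 and 10 (1 range of title numbers) and 1356, 496 and 860 with only MYT replicates 3 to 7 (another range). The last pair of settings had 10 libraries, and the fold test is stricter by construction. The fit over 32 libraries called 2354 higher. Leaving out 1 library gave 3533 to 5997 called, 1311 to 2590 higher and 2222 to 3407 lower, each lowest without SPON replicate 5 and highest without SPON replicate 4. Without SPON replicates 3 and 5 there were 2838 called and 1718 lower, and without 2, 3 and 5 2162, 946 and 1216. Of 91 called genes given with values in the text, 90 kept their call with DESeq2 size factors. With limma voom 81 did, and 68 with sample weights. In the MYT ranges 49 and 60 did, and 61 without SPON replicates 2, 3 and 5. Signs turned at few genes: Cdk1 gave -0.07 with sample weights and -0.02 with MYT replicates 3 to 7, where Epcam gave 0.24. With 1 library left out, Epcam ranged over -0.10 to 0.07, Ccne2 over -0.28 to 0.08 and Ate1 over -4.49 to 0.05. Epcam was 0.03 without SPON replicates 1 and 5, 0.01 without 3 and 5 and 0.11 without 2, 3 and 5. Ate1 and Fgfr2 were 0.09 and 0.29 without 3 and 5, and 0.52 and 1.0 without 2, 3 and 5, when Capza2 was -0.48, Tes -0.48, Met -0.31 and Cdkn1b 0.04. MYT minus SPON means of the shares of counts with MYT replicates 1, 2, 8, 9 and 10 were -8.57 percentage points in the 10 most abundant genes, -7.25 in mitochondrially encoded and -0.308 in ribosomal protein genes (exact permutation, adjusted p = 0.175 each). With MYT replicates 3 to 7 the ribosomal value was -0.407 and that of total counts 58360. Without SPON replicates 1 and 5 these were -1.55, -0.705, -0.216 and 273528, and genes detected gave -215. With 1 library left out they ranged over -9.73 to -4.59 (mitochondrial), -0.425 to -0.244 (ribosomal) and -891168 to 71209 (total counts). For all of these changes the cause was not tested. No paired analysis was possible because the labels give no replicate numbers. At genes of few counts, such as Hoxc10, Saa1 and Chil3, depth limits the precision.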
